A study of Mus musculus with 12 samples.

Results

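Bile duct epithelium from the periphery of the liver was compared between 3 mice homozygous for the Ndr allele of Jag1 (Jag1 Ndr/Ndr, called Ndr) and 3 wild-type mice (Jag1 +/+, called WT). The epithelium was grown as intrahepatic cholangiocyte organoids, hollow balls of bile duct cells in a basement membrane gel, and their RNA was taken at passage 5. The comparison was defined by the labels alone and takes in 6 of the 12 libraries of the series: WT mice 1221, 1223 and 1225 and Ndr mice 1219, 1220 and 1224. The other 6 libraries are organoids from the hilum of the same mice and enter the fit and a comparison with the hilum. The labels give no strain, age or sex, no treatment was given, and each culture stands for 1 mouse. Derivation dates in June differed between the mice: day 15 for WT 1221 and 1223, day 17 for Ndr 1219, day 18 for Ndr 1220, and day 21 for both WT 1225 and Ndr 1224. Only the last 2 cultures share a date across the genotypes, so that genotype and derivation date cannot be told apart in the other 4.

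Jag1 encodes a transmembrane ligand of the Notch pathway. A ligand on one cell binds a Notch receptor on its neighbour, the receptor is cleaved by ADAM proteases and gamma-secretase, and its intracellular part joins the DNA-binding protein RBPJ to switch on genes such as those of the Hes and Hey families. In the liver, Jag1 on portal mesenchyme signals to Notch2 on progenitor cells, and this signal is needed to form and shape bile ducts. Mutations of human JAG1 cause most cases of Alagille syndrome, in which bile ducts are too few, and Ndr is a missense allele that models it in the mouse. The organoids hold epithelium without the portal mesenchyme, so that any Jag1 signal between cells in them has to come from the epithelial cells themselves.

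The 6 peripheral libraries held 8405443 to 12356642 counts, and 15014 of 53700 genes passed the filter on low counts. Levels are given as CPM, counts scaled to the size of the library, in the order WT 1221, 1223 and 1225 and then Ndr 1219, 1220 and 1224. The 3 WT cultures resembled each other more than the 3 Ndr cultures did: over the tested genes, log2 levels correlated at 0.959 to 0.971 between WT cultures, at 0.927 to 0.936 between Ndr cultures and at 0.923 to 0.968 across genotypes, across genes that are not independent replicates. For 12032 genes of at least 5 CPM on average, the median standard deviation of the log2 level was 0.20 in WT and 0.34 in Ndr cultures, and it was larger in Ndr for 74.2% of genes. WT 1221 and 1223, which share a derivation date, correlated at 0.971, and WT 1225, of another date, at 0.965 and 0.959 with them. No Ndr cultures share a date, and the part of the date in the spread was not tested. Ndr 1220 stood apart from the other 5 on the first principal component, which carried 33.7% of the variance. The second carried 30.8% and had Ndr 1219 and Ndr 1224 at opposite ends (-61.3 and 58.3). Mitochondrially encoded genes took 0.685% of counts in Ndr 1220, 4.31% in Ndr 1219, and 0.872% to 2.27% in the other 4 libraries.

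No gene passed the threshold between the genotypes. edgeR's quasi-likelihood test called 0 of 15014 genes (0%) at a Benjamini-Hochberg adjusted p under 0.05, and the smallest adjusted p was 0.987. At an unadjusted p under 0.05, 217 genes (1.45%) stood higher and 221 (1.47%) lower in Ndr cultures. The median standard error of a log2 difference was 0.353, and with 3 cultures against 3 an exact two-sided permutation test cannot give a p below 0.1. All 3 Ndr values lay above all 3 WT values for 813 genes (5.41%) and below them for 542 (3.61%), and these shares are the background for the counts of separated genes given for each gene group. Over all tested genes the median log2 difference, Ndr minus WT, was 0.03, and 8189 (54.5%) were above 0. DESeq2, run on the same counts, called 5 genes higher (0.0279% of 17897) and 5 lower (0.0279%).

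**Figure D1:**
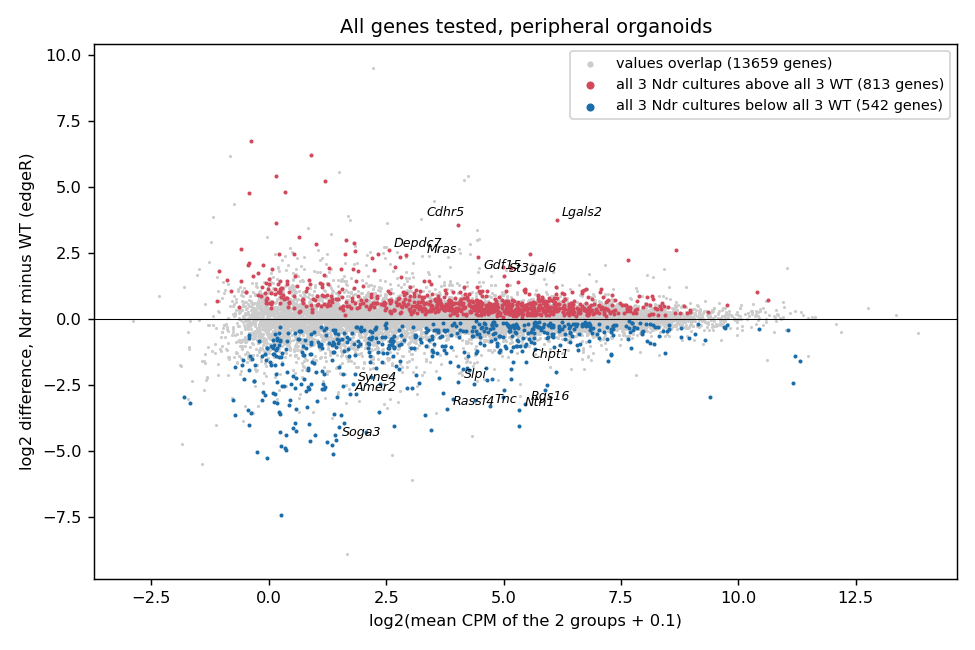
Each point is 1 of the 15014 tested genes in peripheral organoids, with the mean level of both groups on the horizontal axis (log2 of CPM + 0.1) and the log2 difference, Ndr minus WT, from edgeR on the vertical axis. The 813 genes whose 3 Ndr cultures all lie above the 3 WT cultures are red and the 542 with all 3 below are blue, and none passes an adjusted p of 0.05.

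Jag1 itself was transcribed in every culture. Its level was 94.5, 179 and 110.1 CPM in WT and 154, 80.4 and 73.7 CPM in Ndr cultures, and the groups overlapped, with Ndr 1219 above WT 1221 and 1225. The log2 difference was -0.31 (SE 0.432, edgeR adjusted p = 0.99996). Because the Ndr allele changes the protein and leaves the transcript, this level does not check the genotype labels. Of 11 listed ligands and receptors, 7 were high enough to test, 2 stood above 0, and their median was -0.31. Notch2, the receptor most tied to bile duct formation, overlapped between the groups at 101, 110.4 and 55.6 and 132, 28.2 and 80.8 CPM, and so did Notch1 at 26.6, 27.6 and 15.1 and 28, 7.54 and 11.9 CPM. Jag2, the related Serrate-type ligand, was the only tested ligand or receptor with separated groups, at 40.6, 34.7 and 60.3 CPM in WT and 78.7, 77.8 and 61.4 CPM in Ndr (log2 0.68, SE 0.315, edgeR adjusted p = 0.99996). Its WT 1225 and Ndr 1224 values, from the same date, were nearly equal.

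Genes downstream of Notch did not move as a group. Of 15 tested target genes, 6 stood above 0, the median was -0.10, and 1 was separated upward and 1 downward. Hes1, the transcriptional repressor most often used as a readout of Notch signalling, lay at 113, 102 and 101 CPM in WT and 93.4, 92.8 and 129 CPM in Ndr cultures (log2 -0.01, SE 0.251). Sox9, a biliary transcription factor, overlapped between the groups at 158, 230.4 and 146 and 243, 75.4 and 102 CPM. Hes6, which opposes Hes1, was separated upward at 36.4, 29.9 and 35.7 and 40.3, 49.5 and 41 CPM. Dtx4, a Deltex E3 ubiquitin ligase of the pathway, was separated downward at 34.5, 38.2 and 33 and 31.9, 12.8 and 17.8 CPM (log2 -0.76, SE 0.287), although Ndr 1219 lay just under the lowest WT culture. Among 21 tested genes of receptor processing and the nuclear complex, 9 stood above 0, with a median of -0.03. Lfng, the Fringe glycosyltransferase that alters which ligands a Notch receptor answers to, was the separated one of these, at 19.1, 13.2 and 15.5 CPM in WT and 27.3, 19.6 and 26.7 CPM in Ndr. Hey1 was near its limit of detection in all 6 cultures, at most 0.723 CPM. The tested ligands, receptors and targets were called in neither direction by edgeR, and a difference as small as that of Hes1 is within its standard error.

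Of the 24 genes with the smallest p (among those that averaged 5 CPM or more in 1 of the groups), 11 stood lower in Ndr organoids, and several of them encode secreted or signalling proteins. These 24 genes were picked by p from these 6 cultures, so that their separation is a description. Rgs16, which speeds the shut-off of G-protein signals, was at 83.7, 41.9 and 112 CPM in WT and 7.44, 8.77 and 9.42 CPM in Ndr cultures (log2 -3.21, SE 0.645, edgeR adjusted p = 0.987, DESeq2 adjusted p = 0.0012). Its 3 Ndr values lie within 2 CPM of each other, while the WT values range more widely. Slpi, a secreted inhibitor of leukocyte proteases, was at 37.9, 21.3 and 23 CPM in WT and 2.27, 5.56 and 7.87 CPM in Ndr (log2 -2.38, SE 0.54). Ntn1, the guidance cue netrin-1, was at 40.6, 155 and 23.6 and 9.50, 1.41 and 9.42 CPM (log2 -3.43, SE 0.777). Ntn1 is also among the 3 genes that most set WT 1223 apart, and without that culture the log2 difference was -2.27. Tnc, the matrix glycoprotein tenascin C, was at 71.5, 12.8 and 56.8 CPM in WT and 4.55, 2.83 and 6.86 CPM in Ndr (log2 -3.31, SE 0.948).

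P2ry1, a receptor for extracellular ADP that couples to G proteins, was at 18.5, 19.6 and 16.1 CPM in WT and 12, 5.38 and 9.15 CPM in Ndr cultures. Rassf4, a Ras association domain protein, was at 41.9, 23.2 and 10.4 and 1.65, 1.70 and 3.75 CPM (log2 -3.40, SE 0.919). Amer2, an APC-binding protein that restrains Wnt signalling, was at 6.30, 3.47 and 7.10 and 0.826, 0.0943 and 1.37 CPM. Both groups are separated for these 3 genes, and for Rassf4 the WT cultures themselves spread over a wide range. Chpt1, which makes phosphatidylcholine in the last step of the choline pathway, was at 56.8, 109 and 36.4 CPM in WT and 20.1, 18.2 and 26.8 CPM in Ndr (log2 -1.63, SE 0.4). Syne4, the outer nuclear membrane protein nesprin-4, was at 2.02, 9.57 and 5.51 and 1.76, 0.943 and 0.366 CPM, and its WT 1221 value is close to that of Ndr 1219. Soga3 was at 2.86, 8.61 and 3.60 CPM in WT and 0.517, 0.0943 and 0 CPM in Ndr, where a count of 0 in Ndr 1224 allows up to 0.274 CPM. Eif3j1, a subunit of translation initiation factor 3, was at 48.8, 55.3 and 48.6 and 24.8, 34.8 and 26.1 CPM (log2 -0.83, SE 0.232). Its counts may be shared with a near-identical copy, since the treatment of reads that fit several genes is not given in the sources used here.

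The other 13 of the 24 stood higher in Ndr organoids. St3gal6, which adds sialic acid to galactose ends of glycans, was at 12.2, 19.5 and 15.3 CPM in WT and 29.4, 38.9 and 76.4 CPM in Ndr (log2 1.63, SE 0.381, edgeR adjusted p = 0.99996). Lgals2, the sugar-binding protein galectin-2, was at 14.1, 4.78 and 9.86 and 16.6, 277 and 97.3 CPM (log2 3.75, SE 1.04). Ndr 1219 lay only just above WT 1221 for Lgals2, and Ndr 1220 held the highest value by far. Cdhr5, a cadherin of the intestinal brush border, was high in Ndr 1220 and 1224 and not in Ndr 1219: 1.85, 1.08 and 0.848 CPM in WT and 0.413, 31.9 and 20.4 CPM in Ndr, so the groups overlapped. Gdf15, a stress-induced cytokine of the TGF-beta family, had the same pattern at 9.58, 7.42 and 12.6 and 12.5, 41.4 and 47.1 CPM. Mras, a small GTPase related to Ras, overlapped between groups at 2.86, 4.43 and 1.91 and 14.6, 28.7 and 4.12 CPM.

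Some of the higher genes had small spread in both groups. Cbr1, a carbonyl reductase that detoxifies ketones and quinones, was at 44.8, 49.2 and 49.4 CPM in WT and 103, 86.8 and 84.7 CPM in Ndr (log2 0.94, SE 0.246). Cmtm7, a MARVEL-domain membrane protein, was at 4.87, 4.55 and 4.77 and 8.88, 12.7 and 11.6 CPM (log2 1.23, SE 0.315). Dffa, the inhibitor of the caspase-activated DNase, was at 16.3, 15 and 13.9 and 22, 25.9 and 23.9 CPM (log2 0.67, SE 0.199). For these 3 genes the gap between the groups is wider than the range within either. Ercc1, a partner of the nucleotide excision repair nuclease, was at 11.4, 13.9 and 15.7 and 23.1, 20.5 and 26.8 CPM. Tm7sf2, a sterol reductase, was at 32.2, 28 and 34.3 CPM in WT and 55.6, 78.8 and 47.8 CPM in Ndr (log2 0.95, SE 0.234). The remaining 3, Scand1, Depdc7 and the histone pseudogene H3f3a-ps1, had log2 differences of 1.04, 2.59 and 0.88, and the counts of the pseudogene are uncertain because its sequence resembles that of its parent gene.

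Ndr 1224 and WT 1225 are the pair from 1 derivation date. For the 21 of the 24 genes whose groups do not overlap, the sign of the difference in this pair, or with a library left out, is fixed by how they were picked, so that the sizes alone are described. The same-date log2 difference, which has no replicate, was -3.44 for Rgs16, -2.88 for Tnc, 2.25 for St3gal6, 3.18 for Lgals2 and 1.13 for Cmtm7. It was smaller than the full difference for Chpt1 (-0.43), Ntn1 (-1.24), Rassf4 (-1.26), Tm7sf2 (0.46) and Depdc7 (0.41).

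**Figure D2:**
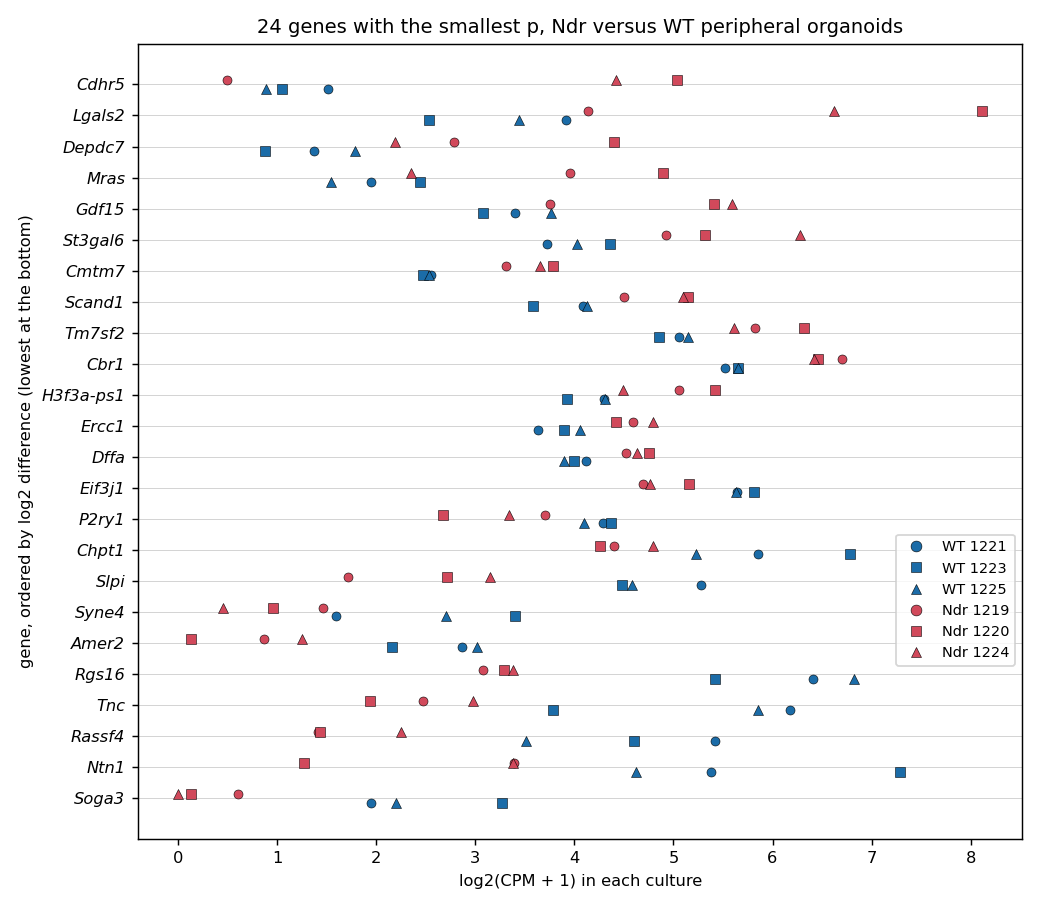
Level of each of the 24 genes with the smallest p in each culture, as log2(CPM + 1) on the horizontal axis, with genes ordered by their log2 difference on the vertical axis; WT cultures are blue, Ndr cultures red, and the shape gives the mouse. Rgs16 lies at 41.9 to 112 CPM in WT and 7.44 to 9.42 CPM in Ndr cultures, and 21 of the 24 genes show no overlap between the groups.

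Cholesterol synthesis genes stood higher in Ndr than in WT peripheral organoids without any of them being called. All 25 tested members were above 0, with a median log2 difference of 0.53 against 0.03 over all genes, and 9 of 25 were separated upward and 0 downward. Tm7sf2 above is one of them. Among the early steps, Mvk and Mvd, the mevalonate kinase and decarboxylase, were at 20.2, 16.6 and 27.6 and 43.3, 39 and 66.8 CPM in WT and 35.8, 45.8 and 32 and 78.4, 111 and 67.8 CPM in Ndr. Nsdhl, a late enzyme that removes methyl groups from sterols, was at 84.8, 87.4 and 157 CPM in WT and 192, 259 and 165 CPM in Ndr (log2 0.91, SE 0.489). In each of these genes WT 1225 lay above the other WT cultures and close to Ndr 1224.

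The level of the cholesterol list in each culture, taken as the median over members of log2(CPM + 1) minus the gene's mean over the 6 cultures, was -0.41, -0.47 and 0.07 in WT and 0.24, 0.45 and 0.13 in Ndr. It thus sets WT 1221 and 1223, the day 15 cultures, below the other 4. Between Ndr 1224 and WT 1225 the median difference over the 25 genes was 0.06. With derivation date as a factor 7 of 25 were above 0, the median was -0.19, and Nsdhl and Mvd lay below 0. The date terms of that fit are shared by the peripheral and hilar cultures, so that its values draw on the hilum too. Days 15, 17 and 18 each held a single genotype. The genotype difference of that fit, averaged over both regions, therefore rests on mice 1224 and 1225 alone. This holds wherever the fit is given, so that it is no replicated result. The counts of the authors' normalized table gave 7 of 25 above 0 (median -0.29). These counts equalled the output of ComBat-seq for derivation date in 99.4% of values, so that they carry an adjustment for the same date and are no separate result. All 25 stayed above 0 when Ndr 1220 was left out (median 0.34). In the hilum the same 25 genes had a median of -0.55, with 1 above 0. The hilar median over all genes is not given beside this and the later hilar medians. These therefore do not tell a shift of the list from a shift of all genes. Of the regulators, Srebf2, the transcription factor of this pathway, was at 367, 316 and 398 CPM in WT and 419, 313 and 495 CPM in Ndr.

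Fatty acid synthesis genes were less uniform, with 16 of 20 above 0, a median of 0.24, and 5 separated upward and 0 downward. Elovl6, an elongase of long-chain fatty acids, was at 39.6, 45.1 and 51.8 CPM in WT and 63.5, 117 and 54.4 CPM in Ndr, and Ndr 1220 held the high value. Me1, a cytosolic malic enzyme that supplies NADPH, was at 256, 252 and 256 and 356, 297 and 369 CPM (log2 0.42, SE 0.21), which separates the groups in every pairing of cultures. Acss2, which makes acetyl-CoA from acetate, was at 12.9, 14.4 and 24.1 and 28.6, 25.6 and 25.1 CPM, with WT 1225 near the Ndr values. With derivation date as a factor Elovl6 and Acss2 lay below 0. Fasn, the fatty acid synthase, overlapped at 259, 342 and 275 and 456, 166 and 216 CPM and was highest in Ndr 1219 and lowest in Ndr 1220. The same-date median over this list was 0.06.

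Xenobiotic and antioxidant genes, many of them targets of the stress-responsive factor NRF2, stood higher in Ndr peripheral organoids. Of 37 tested members 33 were above 0, the median was 0.61, and 11 were separated upward and 0 downward. Gstp1, a glutathione transferase, was at 75, 69.7 and 106 CPM in WT and 145, 209 and 198 CPM in Ndr (log2 1.14, SE 0.407, edgeR adjusted p = 0.99996). Gsta3, another transferase, was at 233, 161 and 211 and 367, 434 and 299 CPM, and Gstm1 at 65.7, 47.2 and 39 and 100.1, 117 and 84.9 CPM. Reads of the Gsta and Gstm genes could be split among near-identical copies, so that single members are uncertain. Gpx1, a glutathione peroxidase, was at 196, 153 and 218 and 272, 441 and 305 CPM, and Gclm, a subunit of the enzyme that starts glutathione synthesis, at 98.1, 117 and 156 and 239, 217 and 161 CPM. Srxn1, which repairs oxidized peroxiredoxins, was at 25.3, 24.2 and 36.8 and 83.9, 39.99 and 51.6 CPM.

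Nqo1, a quinone reductase and a usual readout of NRF2, was low in all cultures and lower in WT, at 0.0840, 0.359 and 1.59 CPM against 7.02, 7.36 and 1.74 CPM in Ndr, and Ndr 1224 lay just above WT 1225. Gsta1 and Gsta2 were near their limit in WT, at up to 2.01 and 0.318 CPM, and reached 8.49 and 2.74 CPM in Ndr. Not every NRF2-linked gene followed. Hmox1, heme oxygenase 1, was highest in WT 1225 at 16.3, 16.7 and 69.95 CPM in WT and 29.2, 29.99 and 21.2 CPM in Ndr. Gclc, the catalytic partner of Gclm, overlapped at 86.5, 95.2 and 247 and 164, 149 and 138 CPM, and Gpx2, a peroxidase of gut epithelium, was high in Ndr 1219 and 1220 and almost absent from Ndr 1224 (144, 285 and 236 and 739, 780.1 and 8.97 CPM). Nfe2l2, which encodes NRF2, was at 451, 527 and 465 and 476, 535 and 485 CPM. The same-date median of the list was 0.13, with derivation date as a factor 28 of 37 stood above 0 (median 0.42), and without Ndr 1220 28 of 37 did (median 0.59).

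To show where such a factor could bind, the RefSeq promoters (GRCm38.p6, 250 bases before to 50 after the gene start) of 31 of the 37 members were searched on both strands for the core of the antioxidant response element, TGACNNNGC. It occurred in 10 of 31 (32.3%) and in 14% of all 27025 genes with a promoter. The list holds many targets of NRF2, so that a high share of the motif is part of how it was chosen. Of the 11 separated members with a promoter, 3 held it. Gclm and Gsta3, 2 of the 3 separated members that hold it, and Hmgcs1, of the cholesterol list, are shown because their lists stood higher. Hmgcs1 was the 1 of 17 cholesterol genes (5.88%, against 1.44% of all genes) with the sterol regulatory element TCACNCCAC. Its values overlapped between the groups, and 0 of the 7 separated cholesterol genes with a promoter held the element. Capitals mark the match, in either orientation, and a match is a description of the letters and not of binding. The Gclm stretch is at chr3:122245378-122245476 on the plus strand, that of Gsta3 at chr1:21240419-21240517 (plus), and that of Hmgcs1 at chr13:119690169-119690267 (plus), all upstream of the start of the gene.
Gclm: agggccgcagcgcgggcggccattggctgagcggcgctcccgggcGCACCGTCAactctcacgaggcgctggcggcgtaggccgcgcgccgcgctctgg
Gsta3: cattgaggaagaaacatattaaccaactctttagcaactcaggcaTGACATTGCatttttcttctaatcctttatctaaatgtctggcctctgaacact
Hmgcs1: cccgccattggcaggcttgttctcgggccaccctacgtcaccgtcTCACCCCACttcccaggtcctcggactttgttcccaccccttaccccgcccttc

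Inflammation and acute phase genes stood lower in Ndr peripheral organoids. Of 39 tested members 7 were above 0, the median was -0.48, and 6 were separated downward and 1 upward. Cxcl5, a chemokine that attracts neutrophils and one of the more abundant transcripts of these cultures, was at 4055, 3679 and 2507 CPM in WT and 727, 1409.6 and 1685 CPM in Ndr (log2 -1.42, SE 0.584, edgeR adjusted p = 0.99996). Ccl20, which attracts CCR6-bearing lymphocytes, was at 27.2, 37.1 and 18 and 8.16, 14.5 and 8.14 CPM. Csf3, the granulocyte growth factor, was at 96.7, 75.6 and 137 CPM in WT and 1.45, 6.32 and 47.3 CPM in Ndr, so that Ndr 1224 lay between the WT cultures and the other Ndr cultures. Steap4, a metalloreductase induced by cytokines, was at 124, 115 and 95.5 and 24.7, 25.1 and 34.2 CPM (log2 -1.99, SE 0.634), with a gap wider than the range of either group. Cp, the copper carrier ceruloplasmin, was at 5217, 4304 and 1941 and 1202, 766 and 1784 CPM, and WT 1225 and Ndr 1224 lay next to each other. Icam1, a leukocyte adhesion molecule, was at 230.4, 190.4 and 161 and 125, 106 and 147 CPM. Cxcl16, a membrane-bound chemokine, was the 1 member separated upward, at 208, 201 and 216 and 258, 238 and 232 CPM.

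Several abundant members of the list split the Ndr cultures. Lcn2, the iron-trapping acute phase protein lipocalin-2, was at 5569.7, 3932 and 3048 CPM in WT and 175, 697 and 3832 CPM in Ndr, where Ndr 1224 lay within the WT range and the other 2 far below it. C3, complement component 3, had the same arrangement at 3444, 2299 and 1270.0 and 391, 174 and 1818 CPM, as did Tnfaip2 at 1039, 730.4 and 647 and 322, 492 and 973 CPM. The level of the list was 0.50, 0.22 and 0.13 in WT and -0.76, -0.50 and 0.04 in Ndr cultures, with Ndr 1224 the nearest to WT. Between the same-date cultures the median over the 39 genes was -0.13. With derivation date as a factor 22 of 39 stood above 0, the median was 0.08, and Lcn2 and Cp lay above 0. Without Ndr 1219 or without Ndr 1220, 9 of 39 stood above 0 (medians -0.60 and -0.39). In the hilum the median of the same genes was -0.51.

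A kappaB-type motif, GGG and TTTCC spaced by any 2 bases and read on both strands, occurred in the promoters of 8 of 28 members with a RefSeq promoter (28.6%) and in 1.89% of all 27025. The holders were Ccl20, Csf1, Cxcl1, Cxcl2, Nfkb2, Nfkbia, Steap4 and Tnfaip3. Ccl20 and Steap4, which were separated between the genotypes, are shown with Cxcl1 and Cxcl2, which were not (181, 139.7 and 125 and 51.4, 98.9 and 134 CPM for Cxcl1, 30.3, 22.1 and 29.3 and 8.57, 24.3 and 18.1 CPM for Cxcl2), so that the same letters stand upstream of genes with both behaviours. The positions on GRCm38.p6, all on the plus strand, are chr1:83116641-83116740 for Ccl20, chr5:7960222-7960300 for Steap4, chr5:90891129-90891228 for Cxcl1 and chr5:90903757-90903856 for Cxcl2. Capitals mark each match, of which Cxcl1 and Cxcl2 hold 2 each. In Ccl20 and Steap4, and for the first in Cxcl1, the match lies in the reverse orientation. The list was made of genes of this pathway, so that a high share of the motif is part of how it was chosen. An RBPJ site, TGGGAA, was searched in the same way. It occurred in 1 of 8 Notch target genes with a promoter (12.5%) and in 28.3% of all 27025.
Ccl20: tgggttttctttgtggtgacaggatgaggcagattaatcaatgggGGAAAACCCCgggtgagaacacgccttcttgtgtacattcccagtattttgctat
Steap4: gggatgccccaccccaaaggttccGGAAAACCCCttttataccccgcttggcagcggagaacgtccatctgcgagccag
Cxcl1: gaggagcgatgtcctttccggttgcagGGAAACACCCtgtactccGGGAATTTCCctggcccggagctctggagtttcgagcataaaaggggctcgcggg
Cxcl2: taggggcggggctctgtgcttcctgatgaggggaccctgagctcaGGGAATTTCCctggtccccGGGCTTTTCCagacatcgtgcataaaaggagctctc

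**Figure D3:**
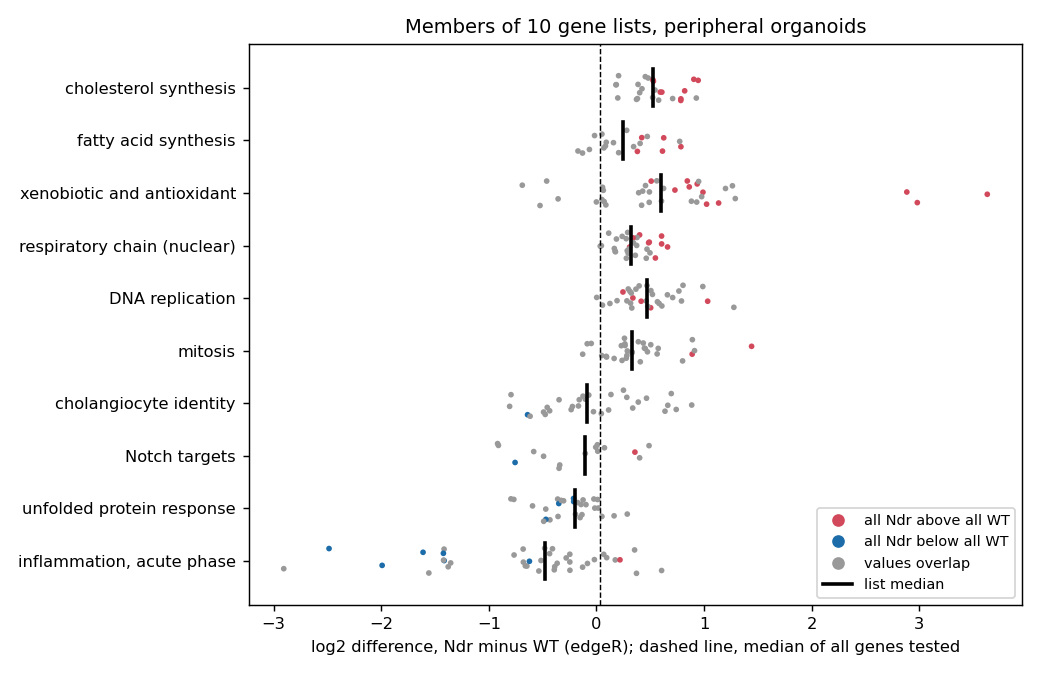
Each point is 1 tested member of a gene list, placed by its log2 difference, Ndr minus WT, from edgeR; red points have all 3 Ndr cultures above all 3 WT cultures, blue points all 3 below, grey points overlap, black bars are list medians, and the dashed line is the median of all genes (0.03). All 25 cholesterol synthesis genes lie right of 0 and 32 of 39 inflammation genes left of it, while cholangiocyte identity and Notch target genes lie on both sides.

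Genes of the cell cycle and of respiration stood slightly higher in Ndr cultures, and in these lists 1 culture carried most of the difference. All 32 tested DNA replication genes were above 0, with a median of 0.47 and 5 separated upward. Mcm6, a subunit of the replicative helicase, was at 119, 137 and 137 CPM in WT and 157, 182 and 158 CPM in Ndr (log2 0.34, SE 0.395), and Fen1, a flap nuclease, was low at 2.10, 1.20 and 2.01 and 3.62, 3.96 and 3.39 CPM. Of 31 mitosis genes 28 were above 0, with a median of 0.33 and 2 separated upward. Mybl2, a transcription factor of cycling cells, was at 5.13, 5.02 and 6.89 and 10.7, 28.6 and 7.04 CPM, and Cdc20, an activator of the anaphase-promoting complex, at 34.5, 36.2 and 41.4 and 42.1, 122 and 44 CPM. In both genes Ndr 1220 stands out, and Ndr 1224 is near WT 1225. The mitosis list level was 0.83 in Ndr 1220 and between -0.38 and 0.11 in the other 5 cultures. Without Ndr 1220, 8 of 31 mitosis genes stood above 0 (median -0.11) and 23 of 32 replication genes (median 0.11). Between the same-date cultures 4 of 31 mitosis genes (median -0.26) and 21 of 32 replication genes (median 0.037) stood above 0. With derivation date as a factor, which rests on mice 1224 and 1225 and draws on the hilar cultures too, 0 of 31 and 1 of 32 did (medians -1.27 and -0.59). In the hilum the medians of the same genes were -1.92 and -0.73. The date-adjusted counts of the normalized table gave 0 of 31 and 1 of 32 (medians -1.56 and -0.70), and there Fen1 was below 0.

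All 30 tested nuclear genes of the respiratory chain were above 0, with a median of 0.32 and 9 separated upward. Cox4i1, a subunit of cytochrome c oxidase, was at 279, 232 and 289 CPM in WT and 311, 489 and 319 CPM in Ndr (log2 0.49, SE 0.329). Atp5o, a subunit of ATP synthase, was at 70.1, 66.1 and 68.4 and 71.2, 158 and 82.5 CPM. Without Ndr 1220 the count above 0 was 22 of 30 and the median 0.09, and the same-date median was 0.05. Ndr 1220 was also the culture with the lowest share of mitochondrially encoded counts, and whether that bears on these genes was not tested. In the unfolded protein response list 5 of 28 stood above 0, with a median of -0.20 and 4 separated downward. Hyou1, a chaperone of the endoplasmic reticulum, was at 323, 329 and 223 CPM in WT and 213, 205 and 214 CPM in Ndr, and Hsp90b1, the HSP90 of that compartment, at 912, 1014 and 895 and 686, 752 and 776 CPM. Canx, a lectin chaperone, was separated by a narrow margin at 862, 1021 and 915 and 857, 733 and 826 CPM. The same-date median of this list was -0.06.

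**Figure D4:**
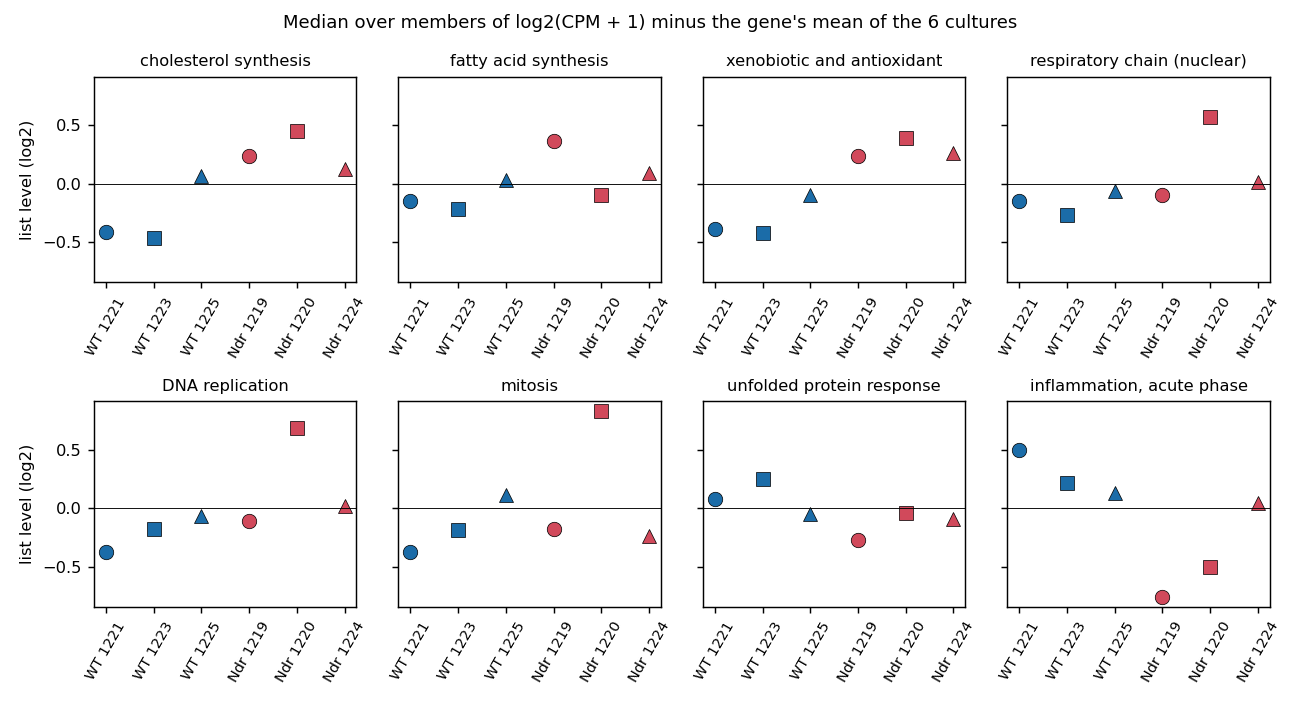
Level of 8 gene lists in each culture, as the median over members of log2(CPM + 1) minus the gene's mean of the 6 cultures; blue is WT, red is Ndr and the shape gives the mouse. Ndr 1220 is highest for mitosis (0.83), DNA replication (0.69) and the respiratory chain (0.57), and WT 1221 and 1223 are lowest for cholesterol synthesis (-0.41 and -0.47).

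Genes of mucous and large-duct epithelium went in both directions. Of 19 tested members 11 stood above 0, with 2 separated upward and 5 downward. Lgals4, a galectin of gut epithelium, was at 109, 139 and 96.6 CPM in WT and 195, 1504 and 402 CPM in Ndr (log2 2.61, SE 0.987), and like Lgals2 it was highest in Ndr 1220. Ltf, the secreted iron-binding protein lactoferrin, was at 2056, 1111 and 421 and 77.1, 39.4 and 345 CPM (log2 -2.96, SE 1.08). Muc20, a membrane mucin, was at 19.5, 16.6 and 28.7 and 8.47, 6.41 and 6.31 CPM, and Pigr, the receptor that carries polymeric antibodies across epithelium, at 19.2, 16.7 and 3.39 and 1.343, 2.36 and 2.74 CPM. On the counts of the normalized table the log2 difference of Pigr was 0.020. Tff2, a trefoil peptide of mucus, was at 6.39, 3.71 and 1.27 and 0.207, 1.13 and 0.549 CPM. Muc5b, a gel-forming mucin, was counted mostly in WT 1221: 44.8, 0.239 and 3.07 CPM in WT and 0, 0 and 0.640 CPM in Ndr, where a count of 0 allows up to 0.31 CPM in Ndr 1219 and 0.283 CPM in Ndr 1220. Muc13, a membrane mucin of gut, was at 13.5, 0.718 and 0.212 and 0, 104 and 15 CPM, with most of it in Ndr 1220.

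Cholangiocyte genes were abundant in all 6 cultures and did not separate the genotypes. Krt7, a keratin of bile duct epithelium, was at 924, 647 and 2103 CPM in WT and 1827, 1588 and 1397 CPM in Ndr cultures, and Cdh1, the epithelial cadherin, at 1509.6, 1271 and 1298 and 1741, 1052 and 1416 CPM. Krt19 was at 1147, 434 and 1928 CPM in WT and 1047, 1661 and 2977 CPM in Ndr, and Epcam at 599.6, 779.6 and 934 and 1274, 880.2 and 348 CPM. Of 30 tested identity genes 13 stood above 0, with a median of -0.09 and 1 separated downward, the mucin gene Muc1 (335, 478 and 342 and 317, 228 and 197 CPM). Hepatocyte markers summed to 175 to 248 CPM in WT and 206 to 322 CPM in Ndr, nearly all of it Hnf4a, with no count of Cps1 and Alb at 10.8, 3.59 and 1.70 and 0.310, 0.377 and 7.59 CPM. The 7 chosen fibroblast and stellate markers summed to at most 1.6 CPM with no count of Dcn. The 5 chosen endothelial ones summed to at most 0.53 CPM with no count of Kdr. Most other members of the wider lists of these cell types were too low to test, but not all. Flt1, of the endothelial list, was at 7.06, 2.27 and 15.2 CPM in WT and 1.24, 0.849 and 60.3 CPM in Ndr. Egfl7, of the same list, was at 8.40, 7.54 and 12.4 and 9.81, 20.3 and 10.3 CPM. Reln, of the stellate list, was at 4.03, 15.5 and 2.33 and 15, 0.189 and 17.3 CPM. Immune markers summed to 18.1 to 24.1 CPM in WT and 9.9 to 30.3 CPM in Ndr, with Ptprc at most 0.106 CPM and no count of Adgre1. Of the immune markers, Csf1r lay at 14.6, 14.1 and 13 CPM in WT and 17, 6.79 and 23.5 CPM in Ndr and Cd68 at 5.71, 3.95 and 10.7 and 3.72, 3.11 and 6.50 CPM, and the part of these transcripts in the inflammation genes was not tested. In bulk RNA, fewer cells of a kind and less RNA per cell cannot be told apart. Mesothelial markers summed to 100.2 to 500.3 CPM in WT and 360.0 to 602 CPM in Ndr, mostly Msln, which overlapped between the groups.

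Wt1, a mesothelial and podocyte transcription factor, had no count in any WT culture or in Ndr 1219, and stood at 0, 1.41 and 26 CPM in Ndr 1219, 1220 and 1224. A count of 0 allows up to 0.252, 0.359 and 0.318 CPM in the WT cultures. In the hilum Wt1 was separated upward in Ndr cultures (log2 7.39, SE 2.93). Ttr, the transthyretin carrier made by hepatocytes, was separated upward at 2.60, 3.59 and 0.530 CPM in WT and 21.4, 8.30 and 4.30 CPM in Ndr. Trf, the iron carrier transferrin, was separated downward at 5533, 3967 and 2111 and 462, 648 and 1044 CPM (log2 -2.43, SE 0.749). Both are on the hepatocyte list, whose 14 tested members were mostly low and had 5 above 0 (median -0.96).

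Within the families of the leading genes few other members were separated. The leading genes, Rgs16, Ntn1, Slpi, St3gal6, Rassf4 and Chpt1, were picked by p from these cultures. They are included in the counts of their families, where their own separation is part of that choice. Of 11 tested RGS genes only Rgs16 was separated, and the 6 with a positive difference include Rgs4 at 0.840, 2.63 and 2.23 and 32.6, 0.377 and 0.274 CPM, which is high in Ndr 1219 alone. Of 27 guidance cues and receptors 9 stood above 0 and 2 were separated downward, Ntn1 and Nrp2, a neuropilin co-receptor, at 56.7, 58.7 and 42.8 and 35.4, 28.3 and 32.6 CPM. Of 19 listed genes of antiproteases and related serpins, not all of them secreted, 13 stood above 0 and 2 were separated downward. These were Slpi and Serpine2, an inhibitor of thrombin and urokinase, the latter at 36, 19 and 69.7 CPM in WT and 13.3, 3.11 and 8.42 CPM in Ndr. Of 12 sialyltransferases only St3gal6 was separated, and 4 stood above 0. Of 10 RASSF genes 2 stood above 0 and 2 were separated downward, Rassf4 and Rassf8, the latter at 128, 82.7 and 63.2 and 58.1, 16.7 and 55.3 CPM. In phospholipid synthesis Chpt1 was the 1 of 19 separated downward and 2 were separated upward, while Cept1, which catalyses the same step and its ethanolamine counterpart, was at 113, 97.5 and 103 CPM in WT and 82.6, 109 and 124 CPM in Ndr (log2 0.01, SE 0.283).

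In the lists of matrix, junction and transport genes few members were separated, beside 3.61% of all genes separated downward. Col4a3 and Col4a4, chains of a specialised basement membrane collagen, were at 3.02, 5.62 and 1.80 and 2.10, 6.10 and 2.54 CPM in WT and 0.517, 0.472 and 0.183 and 0.517, 0.849 and 0.549 CPM in Ndr. They were the only 2 of 29 tested basement membrane and integrin genes with separated groups. Inhba, the activin A subunit, was at 52.3, 30.1 and 84.9 CPM in WT and 7.44, 21.9 and 24.9 CPM in Ndr (log2 -1.62, SE 0.551), and with Tnc made up the 2 separated of 27 TGF-beta and mesenchymal genes. Cldn1, a tight junction protein, was at 6.64, 4.66 and 14.3 and 1.65, 1.60 and 1.37 CPM, with near-constant Ndr values, and with Llgl2, a polarity gene separated upward at 89.5, 99.6 and 98.7 and 152, 99.7 and 104 CPM, made up the 2 separated of 31 junction and polarity genes. Slc12a2, the sodium, potassium and chloride cotransporter that loads secretory epithelium with chloride, was at 755, 916 and 701 CPM in WT and 516, 390.1 and 464 CPM in Ndr (log2 -0.79, SE 0.273), the 1 separated of 20 biliary transport genes. Hk2, a hexokinase, was at 142, 98.4 and 139 and 76.2, 36.1 and 77.7 CPM. Lgr4, which binds R-spondins at the cell surface, was separated upward at 68.1, 89.4 and 45.7 and 102, 95.3 and 99.9 CPM. Ifitm3 and Ifit2 were the 2 separated of 28 interferon and antigen presentation genes, at 37.4, 81.5 and 15.4 and 2.52, 4.78 and 3.18 CPM in WT and 13.2, 4.43 and 9.97 and 1.76, 1.51 and 1.10 CPM in Ndr.

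Apart from Lcn2, the 10 most abundant nuclear transcripts differed little between the groups relative to their spread. Lcn2 had a log2 difference of -1.42 (SE 1.05), and its groups overlapped. Clu, the secreted chaperone clusterin, was highest, at 20353, 18076 and 13199 CPM in WT and 18755, 7159.6 and 9679.5 CPM in Ndr cultures, and the groups overlapped. Spp1, which encodes osteopontin, varied widely within both groups at 6104, 7590.1 and 2724 and 1795, 1608 and 8280.1 CPM. Hsp90ab1, a cytosolic chaperone, was at 2672, 2672 and 3147 and 3163, 2638 and 2829.6 CPM (log2 0.02, SE 0.263). Eef1a1, Eef2, Tpt1-ps3, Gm13456, Scd2 and Krt18 completed the 10 with Lcn2, with log2 differences of 0.14, -0.20, 0.06, 0.08, 0.16 and 0.25, and the counts of Tpt1-ps3, a pseudogene, of Gm13456 and of Eef1a1 are uncertain because near-identical copies exist.

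Some genes stood far higher in a single peripheral culture than in the others. Of genes of at least 20 CPM in the highest culture, Ndr 1220 had 94 more than 2-fold above all other cultures and 197 more than 2-fold below, against 37 to 47 above and 69 below in each of the other Ndr cultures and 14 to 33 above and 7 to 14 below in WT cultures. Serpinb11 and Krt4, genes of stratified epithelium, and Hopx, a homeodomain protein, marked Ndr 1220 at 103, 30.6 and 25.4 CPM, against at most 2.02 CPM elsewhere. Ndr 1219 was marked by Gata5, an endodermal transcription factor, at 107.5 CPM, by the serpin gene Serpinb9b at 35.6 CPM and by the kinase anchor gene Akap5 at 83.8 CPM. Ndr 1224 was marked by Wt1 and by the matrix genes Col6a1 (2.27, 0.0943 and 67.4 CPM in the Ndr cultures) and Bgn (1.24, 0.377 and 53.9 CPM). Among WT cultures, 1221 was marked by Muc5b, Chil1 (187, 25.1 and 16.4 CPM) and Apobr, 1223 by Cldn8, Tnfrsf19 and Ntn1, and 1225 by Mcpt8, Nrk and Ppbp. Of these genes only Ntn1 is also among the 24 with the smallest p.

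**Figure D5:**
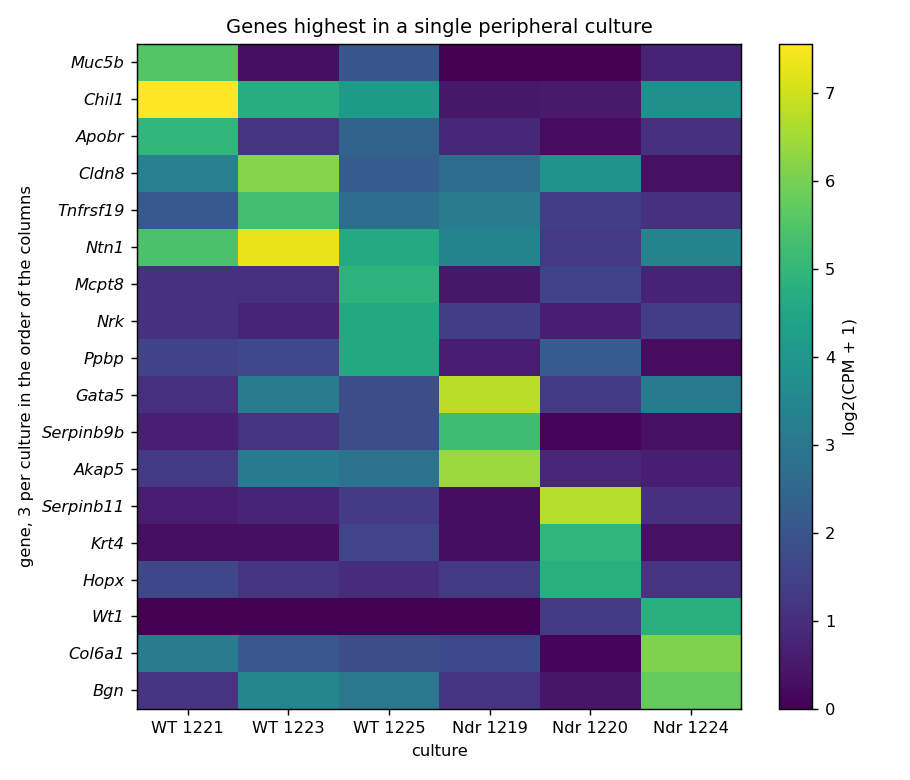
Level of 18 genes, 3 for each culture with the widest gap to the next culture, as log2(CPM + 1) by colour from 0 (dark) upward, with the 6 peripheral cultures as columns. Serpinb11 reaches 103 CPM in Ndr 1220 alone, Gata5 107.5 CPM in Ndr 1219 alone, and Ntn1 is high in all 3 WT cultures.

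Whether a difference in the periphery differed from that in the hilum was tested as an interaction, peripheral minus hilar, in the same fit. edgeR called 0 genes (0%), its adjusted p nowhere fell below 0.994, and 451 genes (3%) had an unadjusted p under 0.05. DESeq2 called 4, Chpt1, Smoc1, Rian and Rbm38. Chpt1 was at 29.3, 33.8 and 22.2 CPM in WT and 66.5, 111 and 53.9 CPM in Ndr hilar cultures, in the same order of mice, so that it was separated upward in the hilum and downward in the periphery (interaction -3.07, SE 0.564, edgeR adjusted p = 0.994, DESeq2 adjusted p = 0.0069). Rgs16, Tnc and St3gal6 had like values in both regions: hilar log2 differences were -2.65, -3.50 and 1.57, beside -3.21, -3.31 and 1.63 in the periphery, and interactions -0.56 (SE 0.844), 0.20 (SE 1.25) and 0.06 (SE 0.528). Lgals2 and Cdhr5 had hilar differences of 0.60 and -0.40 against 3.75 and 3.78, with interactions of 3.15 (SE 1.37) and 4.18 (SE 1.53) that edgeR did not call (adjusted p = 0.994 for both). Steap4 was at -1.99 in the periphery and -0.43 in the hilum. The fit treats the peripheral and hilar cultures of a mouse as independent.

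A few genes called by DESeq2 alone were close to the limit of detection in 1 genotype. Ihh, the hedgehog ligand of gut epithelium, was at 0.420, 0.120 and 0.318 CPM in WT and 2.89, 1.98 and 3.02 CPM in Ndr cultures (DESeq2 adjusted p = 0.0451, edgeR adjusted p = 0.987). Bpifb4, of a family of lipid-binding secreted proteins, had no count in WT cultures and 1.03, 1.89 and 1.10 CPM in Ndr. Them7 and Xlr3b were at most 0.12 and 0.318 CPM in WT, and 3.82, 1.41 and 5.22 and 1.76, 8.58 and 2.47 CPM in Ndr. Ch25h, which makes 25-hydroxycholesterol, a sterol that restrains cholesterol synthesis, was at 6.22, 2.63 and 1.91 CPM in WT and 0, 0.189 and 0.274 CPM in Ndr. These 5 genes, with Rgs16, Ntn1, Slpi, Lgals2 and Rassf4, are the 10 DESeq2 calls, and edgeR gave adjusted p from 0.987 to 0.99996 for them.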

How the data were processed

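Per the labels' protocols, RNA of untreated organoids at passage 5 was made into libraries with a TruSeq RNA v2 kit, which does not mark strand. The authors deposited raw read counts per gene, counted by featureCounts against the GRCm39 genome according to the submitters' processing notes. They also deposited a normalized signal table made with DESeq2 1.34.0, per the same notes. Its values were whole counts divided by 1 factor per library (100% whole within 0.01), and these equalled the raw counts in 43.1% of cells, so a further adjustment was made that is not given in the sources used here. ComBat-seq (sva 3.50.0), given the raw table, the date of derivation as batch and genotype as the kept group, gave the same count in 99.4% of cells, and in 99% of those that differ from the raw counts. Aligner, annotation release and strand setting are not given either.

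The raw counts were tested in edgeR 4.0.16 (R 4.3.3, low genes removed by filterByExpr, TMM scaling, robust quasi-likelihood F test, Benjamini-Hochberg adjustment) in 1 fit of all 12 libraries with 8 residual degrees of freedom, so that the groups share 1 estimate of spread. CPM come from edgeR's cpm function. DESeq2 1.42.0, limma 3.58.1 and the alternatives of the closing section were run beside it, and the fits were tested on simulated data. Hilar and peripheral cultures with 1 mouse number come from 1 animal. Symbols came from GENCODE M21 (GRCm38), used for names only, with 52093 identifiers matched. Of 994 list entries 991 matched.

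The genes and lists were chosen with earlier results of these data known. Named were Jag1, the 24 genes of smallest p with a mean of 5 CPM or more in the higher group, the 10 most abundant nuclear genes, 3 genes per library with the widest gap (20 CPM or more) and up to 4 separated members per list (1 CPM or more). Other members were picked after their values were seen, by their role. A count of 0 was given a limit of 3 counts. No column was left unused.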

Additional observations from a re-analysis of the deposited data

Results flagged for a closer look

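In 2 of the reported genes the groups were separated in opposite directions in the periphery and in the hilum. In the periphery alone, 9.02% of the 15014 tested genes were separated in either direction. The share of all genes with opposite separation in the 2 regions is not given, so that the 2 genes are a description. Chpt1, the choline phosphotransferase gene, had peripheral and hilar log2 differences, Ndr minus WT, of -1.63 and 1.44, and their difference, the interaction, was -3.07 (SE 0.564, edgeR adjusted p = 0.994, DESeq2 adjusted p = 0.00688). It was separated downward in the 3 Ndr peripheral cultures and upward in the 3 Ndr hilar cultures. In the peripheral pair of the same derivation date the difference was -0.43. Pdia4, a disulfide isomerase of the endoplasmic reticulum, had differences of -0.21 and 0.16, and the interaction was -0.37 (SE 0.228, edgeR adjusted p = 0.994). Its values lay between 239.8 and 299 CPM in the periphery and between 279 and 336 CPM in the hilum.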

How the results depend on the processing

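With 3 cultures a group and a median SE of 0.353, only large differences could be detected. The count of genes called for the genotype was 0 in edgeR and stayed 0 with limma-voom, RLE factors, both other filters, derivation date as a factor and the 6 peripheral libraries alone. DESeq2 called 10 genes, and 4 for the interaction. The date-adjusted whole counts recovered from the normalized table, tested as if unadjusted, gave 126 (57 higher, 69 lower), of which 2 are among the 24 genes of smallest p. Leaving out 1 library gave 0 to 2, the 2 (Col14a1 and Cdhr5) without Ndr 1219. Paired analysis: with the mouse as a replicate block (limma-voom, correlation -0.135) 0 genes were called and 435 had an unadjusted p under 0.05, and the block changed no call. That unadjusted count was 438 in the main fit, 671 with no filter, 242 at 10 CPM or more in 3 libraries, 1721 on the recovered counts, and 277 to 774 with 1 library left out (661, 280 and 774 without Ndr 1224, 1220 and 1219, 286 and 277 without WT 1221 and 1223). Genes separated upward made up 3.53% with no filter, and genes separated downward 7.59% on the recovered counts. The fit with derivation date as a factor has 1 mouse per genotype on a shared date, 1224 and 1225. These log2 values had the other sign. With derivation date as a factor they were 0.29 for Lcn2, 0.083 for Cp, -0.22 for Nsdhl, -0.25 for Mvd, -0.83 for Elovl6, -0.44 for Acss2, -0.89 for Mybl2 and -0.77 for Cdc20, and the list medians -0.19 for cholesterol synthesis, 0.080 for inflammation, -0.59 for DNA replication and -1.27 for mitosis. On the recovered counts they were -0.33 for Nsdhl, -0.33 for Mvd, -1.12 for Elovl6, -0.53 for Acss2, 0.020 for Pigr, -0.18 for Fen1, -1.54 for Mybl2 and -1.22 for Cdc20, with medians of -0.29, -0.70 and -1.56 for cholesterol synthesis, DNA replication and mitosis. Between the same-date cultures Lcn2 was at 0.33 and the mitosis median at -0.26, and that median ran from -0.11 without Ndr 1220 to 0.51 without Ndr 1224. The cause of these changes was not tested. Of 67 named genes refitted, 45 kept their sign in every alternative, which separated groups fix for the fits without 1 library and for the same-date pair. The 10 just given, and 12 more whose difference was within its standard error (such as Spp1, Krt18 and Mcm6), did not, nor did the medians near 0 of Notch targets, Notch processing and cholangiocyte identity. Counts of list members without single libraries, with date as a factor and on recovered counts were added after seeing the data.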

Other observations

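Of 36 tested primary cilium genes 11 stood above 0, with a median log2 difference of -0.12 and 2 separated upward, Ift46 and Ift52, parts of the intraflagellar transport machinery. The same genes had a median of 0.46 in the hilum, with 34 of 36 above 0, given without the hilar share over all genes. Of 18 tested IGF and insulin genes 5 stood above 0, and Irs1, an insulin receptor substrate, was the separated one, at 22.1, 28.5 and 22.3 CPM in WT and 21.3, 15.5 and 10.1 CPM in Ndr cultures. Of 31 junction and polarity genes 18 stood above 0, with Llgl2 separated upward and Cldn1 downward. Of 26 YAP target genes 10 stood above 0. Amotl2, an angiomotin family member that restrains YAP, was separated downward at 216, 327 and 209.96 CPM against 202, 97.4 and 143 CPM, and Tnfrsf12a, the TWEAK receptor, upward at 203, 179.8 and 213 CPM against 236, 294 and 245 CPM. Of 22 immediate early and heat shock genes 14 stood above 0 and none was separated. edgeR called no member of these lists.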
